A study of Mus musculus with 9 samples.

Results

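Transcripts of 8 chemokine and homing receptors were followed in mouse regulatory T (Treg) cells lacking the acetyltransferase CBP or the related p300. The 8 are Ccr2, Ccr4, Ccr6, Ccr7, Ccr8, Cxcr4, S1pr1 and Selplg, taken as a group by function and found on the array by their gene symbol. They were chosen with earlier results of these data known. All 8 were measured, by 10 of the 22626 probe sets that are not controls: Ccr2 had 3 and each of the others 1. The comparisons covered 12393 genes and used 1 probe set for each, whichever was brightest on average.

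Chemokine receptors are G protein-coupled receptors that turn a migrating cell toward a source of their ligand, and the set a T cell carries decides which tissues it can enter. Ccr7 and S1pr1 work as a pair in lymph nodes: Ccr7 brings cells in and holds them near its ligands, and S1pr1 senses sphingosine 1-phosphate in lymph and blood and lets them leave. Treg cells that reach skin, gut and inflamed tissue use receptors such as Ccr4, Ccr6 and Ccr8, and Selplg carries the sugars that selectins on vessel walls bind.

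The cells were CD4+CD25+ Treg cells separated with magnets, 3 independent samples per group and 1 array per sample, all from mice on the C57Bl/6 background. The CBP-deleted group carried fl-CBP/Foxp3cre, the p300-deleted group fl-p300/Foxp3cre, and the control group is labelled Foxp3cre control with arrays titled WT, so that by the labels all 3 groups share Foxp3cre. A Cre under Foxp3 deletes in cells that have expressed Foxp3, and the magnetic fraction can hold other cells. Age and the floxed exons are not given in the labels. The question the study names is whether Foxp3+ Treg cells need CBP and p300 to develop and function.

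The arrays were alike in scale, with medians of log2 5.49 to 5.59, and no depth exists for an array, so that the number of arrays limits the precision. Within a group, arrays correlated at 0.994 or more in the deleted groups and at 0.988 or more in controls. The T cell gene Cd3e read log2 11.33 to 11.74 on all 9 arrays, Il2ra, which encodes CD25, read 8.77 to 9.33, and Cd4 read 8.96 to 10.11. Cd4 was higher than in controls by 0.66 in p300-deleted cells (SE 0.13, limma adjusted p = 0.0214) and by 0.16 in CBP-deleted cells (adjusted p = 0.559). Foxp3 read 9.48 to 9.75 in controls and 2.58 to 3.19 in the 6 deleted arrays. Which part of the transcript that probe set reads was not given, so that the reading does not show whether the cells lack Foxp3 or carry an allele the probe set misses. The labels give Foxp3cre to all 3 groups, yet the groups differ at this probe set, and in each comparison with the control this difference and the loss of CBP or p300 cannot be told apart. Crebbp, the gene of CBP, averaged 7.20 ± 0.13 (SD, n = 3) in CBP-deleted and 7.53 ± 0.16 in control cells, a log2 difference of -0.33 (SE 0.11, limma adjusted p = 0.123), and a probe set that lies outside the deleted exon checks nothing. Ep300, which encodes p300, is not analysed here. The immunoglobulin gene Ighm read 13.44 in CBP-deleted, 14.02 in p300-deleted and 13.69 in control cells on average, so RNA of B lineage cells was present in every group. In such bulk samples fewer cells of a type and less RNA per cell cannot be told apart.

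Deletion of CBP was accompanied by a higher Ccr8 and a lower Selplg reading, and deletion of p300 by no receptor call. On the log2 scale Ccr8 rose by 0.78 and Selplg fell by 0.33 in CBP-deleted cells. The control reading of Ccr8 was not shown to be above background, so that no fold is given for it. These 2 of 8 receptors, or 1 in each direction, stand beside 4.93% of all 12393 genes that passed in the same comparison, 2.14% higher and 2.79% lower. An unadjusted p below 0.05 was found for 4 of the 8 receptors there and for 20.4% of all genes. In p300-deleted cells 0 of 8 receptors passed in limma, the one tool run, although 3 had an unadjusted p below 0.05; over all genes 4.06% passed and 18.6% had an unadjusted p that low. Between the deleted groups 0 of 8 passed in limma, 2 with an unadjusted p below 0.05, against 5.20% and 18.3% of all genes. Both deleted groups were set against the same 3 controls. Because the 8 were chosen with earlier results of these data known, their shares beside all genes are descriptions.

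**Figure D1:**
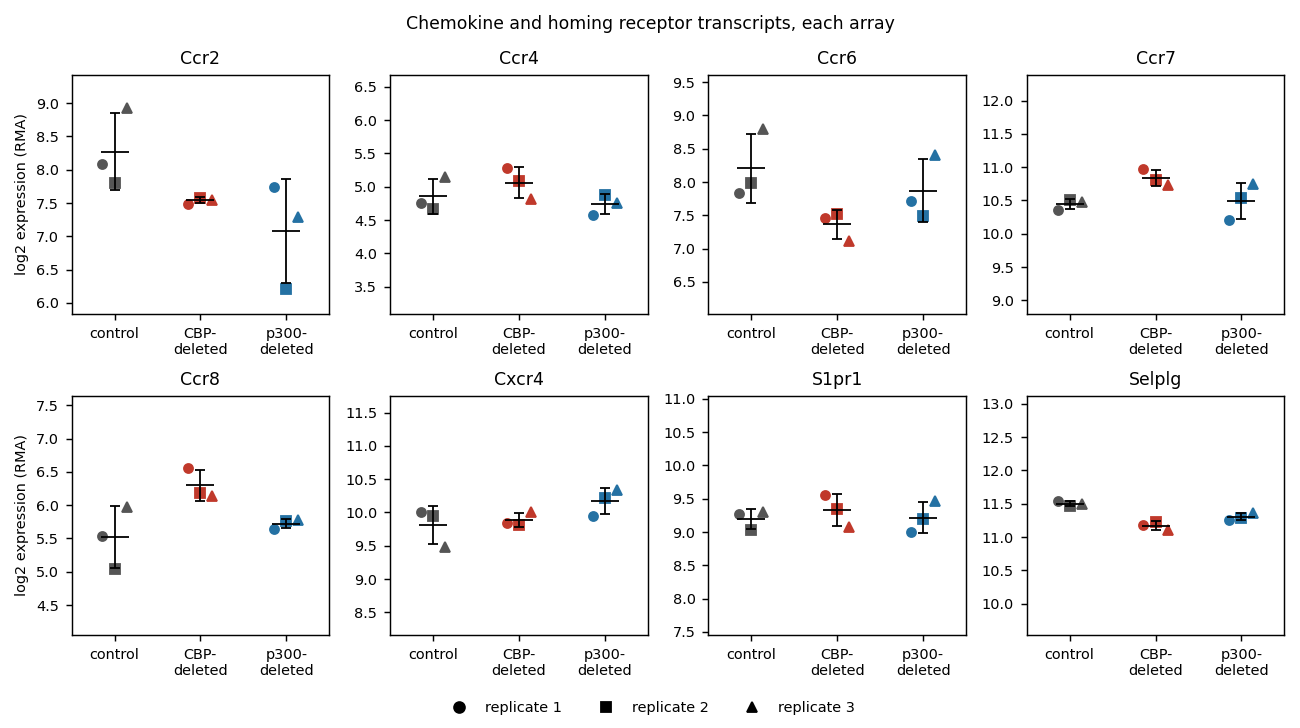
Log2 expression (RMA) of the 8 receptors on each of the 9 arrays, 1 panel per gene with axes of equal length; circles, squares and triangles are replicates 1, 2 and 3, and bars show the mean and SD of 3 arrays. The 3 CBP-deleted arrays lie above all controls for Ccr8 and Ccr7 and below all controls for Selplg, Ccr6 and Ccr2.

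Ccr8, a receptor for Ccl1 and Ccl8 that marks Treg cells of skin and other tissues, read log2 6.56, 6.19 and 6.14 in CBP-deleted replicates 1, 2 and 3. It read 5.54, 5.04 and 5.97 in the controls and 5.64, 5.76 and 5.77 in p300-deleted cells. All 3 CBP-deleted arrays lay above all 6 others, while control and p300-deleted arrays overlapped. The difference from the control was 0.78 (SE 0.20, 95% interval 0.34 to 1.22, limma adjusted p = 0.0478). In p300-deleted cells it was 0.21 (SE 0.20, adjusted p = 0.649), and the difference between the deleted groups, 0.57 (SE 0.20), did not pass (adjusted p = 0.139). To place these levels, 13 genes of other organs such as Alb and Gfap read 1.97 to 6.10 on these arrays, with a median of 3.52. The upper end of that range rests on Cela1 and Pomc, with means of 5.76 and 5.67, and the next highest, Ins2, averaged 4.52. The control and p300-deleted levels of Ccr8 thus fall within that range and the CBP-deleted ones above it, and the difference of 0.78 is one between readings, not a measured ratio of transcript levels. The call is close to the threshold: without any single array other than control replicate 3 the adjusted p was 0.0647 to 0.170, and without control replicate 3 it was 0.00550. Ccr8 has 1 probe set, so that its difference stayed at 0.78 when each gene's probe sets were averaged or every probe set was tested. The call was still lost there (0.0546 and 0.0696), through the moderation and adjustment shared with other genes. It was also lost with eBayes without trend (0.0531), with only the arrays of the 2 groups (0.0996) and with a replicate block. The difference kept its sign over all 18 alternatives, between 0.54 and 1.01. Against p300-deleted cells Ccr8 passed without control replicate 2 (adjusted p = 0.0352), without control replicate 3 (0.0428) and in a fit of those 6 arrays alone (0.0167), in a range of 0.0167 to 0.377.

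The sequence upstream of the Ccr8 start is shown because this receptor was the one that rose. That of Ccr6, which had the most negative difference in the same comparison but did not pass, is set beside it. RefSeq's promoter table (GRCm38.p6) holds 5 of the 8 receptors with 6 starts. It lacks Ccr7, S1pr1 and Selplg, so that no sequence of Selplg, the receptor called lower, could be shown. Capitals mark a match, on either strand, to one of 7 motifs.
Ccr8, chr9:120091883-120092132, plus strand: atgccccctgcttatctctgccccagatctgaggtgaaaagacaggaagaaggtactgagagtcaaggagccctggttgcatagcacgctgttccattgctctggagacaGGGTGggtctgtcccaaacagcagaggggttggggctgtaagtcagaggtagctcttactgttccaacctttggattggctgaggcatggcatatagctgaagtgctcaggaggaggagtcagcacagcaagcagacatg
Ccr6, first start, chr17:8235793-8236042, plus strand: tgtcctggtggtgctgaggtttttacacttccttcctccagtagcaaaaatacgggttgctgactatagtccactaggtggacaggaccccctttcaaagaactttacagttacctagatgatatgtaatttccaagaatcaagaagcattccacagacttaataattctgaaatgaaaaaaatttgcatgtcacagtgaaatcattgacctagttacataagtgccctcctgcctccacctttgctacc
Each run is the 250 bases before a transcript start, written 5′ to 3′. The Ccr8 run holds 1 match to CACCC, the core of KLF and Sp sites, written there as GGGTG on the plus strand 140 to 136 bases before the start; 52.0% of 32851 promoters hold that motif, as do 3 of the 6 receptor runs, those of Ccr4, Ccr8 and Cxcr4. The run of the first Ccr6 start holds none of the 7. The cyclic AMP response element TGACGTCA was in 1.55% of promoters and in 0 of the 6 receptor runs, and its overlapping half-site TGACG was in 17.8% and in 1 run, that of the second Ccr6 start. The AP-1 motif TGANTCA (6.75%) was found upstream of Ccr4. The forkhead motif TGTTTAC (3.17%), the RUNX motif TGTGGT (14%) and the NF-kappaB motif (1.41%) were not found in the 6 runs. These are descriptions of letters in short windows.

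Selplg encodes PSGL-1, the ligand through which leukocytes roll on P-selectin. It read log2 11.18, 11.23 and 11.10 in CBP-deleted cells, 11.26, 11.29 and 11.36 in p300-deleted cells, and 11.54, 11.47 and 11.49 in controls. The 3 groups did not overlap: controls were highest, p300-deleted arrays came next and CBP-deleted arrays were lowest. In CBP-deleted cells it fell by 0.33 (SE 0.07, 95% interval -0.47 to -0.18, limma adjusted p = 0.0207), so that controls read 1.26 times as much. In p300-deleted cells the difference was -0.20 (SE 0.07, adjusted p = 0.130), and between the deleted groups -0.13 (SE 0.07, adjusted p = 0.329). Leaving out CBP-deleted replicate 1, 2 or 3 gave an adjusted p of 0.0820, 0.0626 or 0.105, and leaving out control replicate 1 gave 0.0772. The call was also lost with eBayes without trend (0.0557), with only the arrays of the 2 groups (0.0554) and with a replicate block. The 18 alternatives spanned 0.0134 to 0.105.

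**Figure D2:**
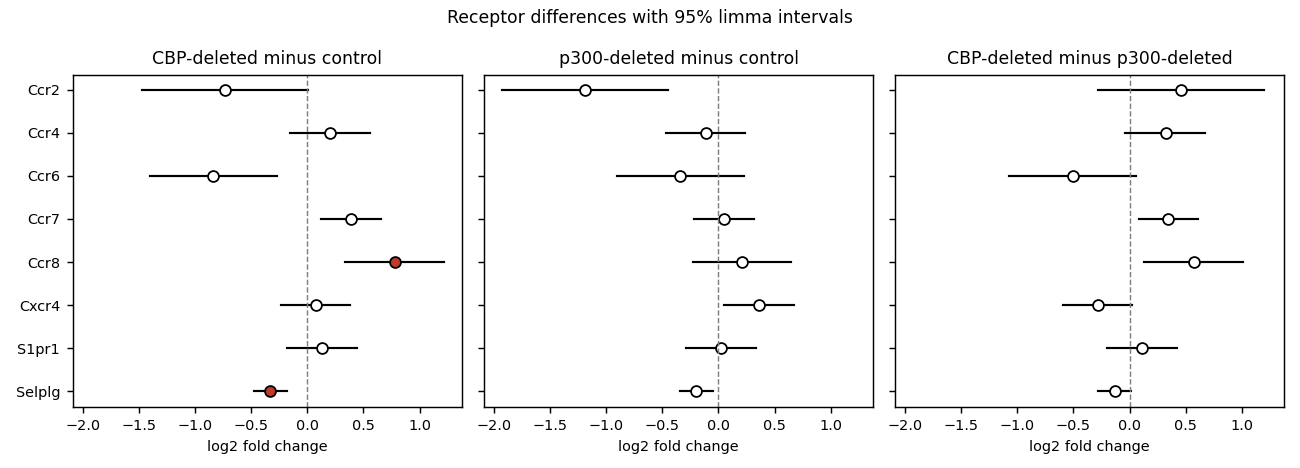
Log2 fold change of each receptor in the 3 comparisons, with lines for the 95% interval of the limma fit and filled red points where the adjusted p was below 0.05. The filled points are Ccr8 and Selplg in CBP-deleted minus control.

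Ccr6, the receptor for Ccl20 on Th17 cells, B cells and Treg cells of mucosal tissue, read log2 7.46, 7.52 and 7.12 in CBP-deleted cells and 7.84, 7.98 and 8.80 in controls. It read 7.72, 7.49 and 8.40 in p300-deleted cells. The CBP-deleted arrays lay below all controls, whereas p300-deleted arrays overlapped both. The difference of CBP-deleted from control cells was -0.84 (SE 0.26, limma adjusted p = 0.0895), the most negative of the 8 in that comparison, and it did not pass. Without control replicate 3, the highest array, it was -0.54 (adjusted p = 0.159); the 18 alternatives spanned 0.0610 to 0.276. In p300-deleted cells it was -0.34 (adjusted p = 0.553), and -0.04 (adjusted p = 0.942) without control replicate 3. B cells carry Ccr6, and 4 of 11 B cell markers fell in CBP-deleted cells. Ighm fell by 0.25, Cd22 by 0.62, and the receptor chains Cd79b and Cd79a by 0.84 and 1.03. The log2 of the summed level of the 11 was 13.47 to 13.62 in CBP-deleted, 13.74 to 13.84 in control and 14.05 to 14.14 in p300-deleted cells. Ighm was the largest part of it. In p300-deleted cells 1 of the 11 passed, Ighm, higher by 0.33 (limma adjusted p = 0.0167), while the median of the 11 was -0.19. Cd22, Cd79b and Cd79a differed by -0.32, -0.26 and -0.22 there and did not pass. The B cell factors Pax5 and Ebf1 read 3.41 or less on average in each group. The part of B cells in the Ccr6 difference was not tested.

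Ccr2, the receptor for Ccl2 on monocytes and on memory and effector T cells, was read by 3 probe sets. The brightest read log2 7.49, 7.58 and 7.55 in CBP-deleted cells, 7.74, 6.21 and 7.29 in p300-deleted cells, and 8.09, 7.80 and 8.92 in controls. All 3 controls lay above all 6 deleted arrays, with control replicate 3 the highest and p300-deleted replicate 2 the lowest. The differences from the control were -0.73 (SE 0.34, limma adjusted p = 0.252) in CBP-deleted and -1.19 (SE 0.34, adjusted p = 0.0750) in p300-deleted cells. The latter is the largest difference of any receptor, a 2.29-fold higher reading in controls, with a 95% interval from -1.93 to -0.45. It passed without p300-deleted replicate 1 (-1.52, adjusted p = 0.0433) and without control replicate 2 (-1.43, adjusted p = 0.0498), in a range of 0.0433 to 0.234. It was -0.76 (adjusted p = 0.234) without p300-deleted replicate 2 and -0.87 (adjusted p = 0.135) without control replicate 3. The other 2 probe sets differed by -0.81 (adjusted p = 0.106) and -1.03 (adjusted p = 0.0698) when each probe set was tested on its own over 22626, and both placed p300-deleted replicate 2 lowest. The probe set with -1.03 read within the range of the genes of other organs on all 9 arrays, and the one with -0.81 did so on all but control replicates 1 and 3, so that neither was shown to be above background in the deleted groups. The deleted groups differed from each other by 0.46 (SE 0.34, adjusted p = 0.523). Monocytes also carry Ccr2. Of 8 monocyte and macrophage markers 0 passed in limma in either deleted group (1 and 2 with an unadjusted p below 0.05), and their summed levels overlapped in all groups, at log2 7.66 to 8.66 in controls, 7.86 to 9.44 in CBP-deleted and 8.50 to 9.96 in p300-deleted cells.

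**Figure D3:**
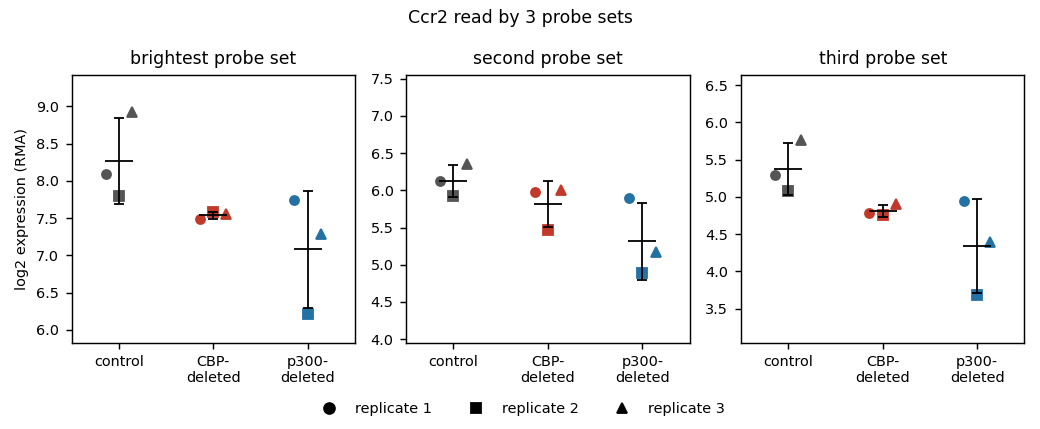
Log2 expression (RMA) of Ccr2 by each of its 3 probe sets on the 9 arrays, with the mean and SD of 3 arrays per group. In each probe set p300-deleted replicate 2 is lowest and control replicate 3 highest.

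Ccr4, the receptor for Ccl17 and Ccl22 on skin-homing T cells and Treg cells, read log2 5.28, 5.08 and 4.82 in CBP-deleted, 4.58, 4.88 and 4.76 in p300-deleted and 4.76, 4.66 and 5.15 in control cells. The 3 groups overlapped, and every array lay within the range of the genes of other organs, so that a level above background was not shown for this probe set. It differed from the control by 0.20 after loss of CBP and by -0.11 after loss of p300 (SE 0.16 each, limma adjusted p = 0.526 and 0.777), and 0.32 between them (adjusted p = 0.332).

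Among the receptors of lymphoid tissue and marrow, Ccr7 binds Ccl19 and Ccl21 and directs T cells into lymph nodes. It read log2 10.97, 10.81 and 10.73 in CBP-deleted cells, 10.20, 10.53 and 10.75 in p300-deleted cells, and 10.36, 10.51 and 10.47 in controls. The CBP-deleted arrays lay above all controls but met the highest p300-deleted array. The difference from the control was 0.39 (SE 0.12, 95% interval 0.12 to 0.66) and did not pass (limma adjusted p = 0.0934); without p300-deleted replicate 1 it passed (adjusted p = 0.0446, range over 18 alternatives 0.0446 to 0.273). In p300-deleted cells it was 0.05 (adjusted p = 0.883), and the deleted groups differed by 0.34 (SE 0.12, adjusted p = 0.148).

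S1pr1, the egress receptor, read log2 9.56, 9.35 and 9.08 in CBP-deleted, 9.0, 9.19 and 9.46 in p300-deleted and 9.27, 9.03 and 9.30 in control cells. The 3 groups overlapped throughout. The 95% interval of the difference from the control was -0.18 to 0.44 in CBP-deleted cells and -0.29 to 0.33 in p300-deleted cells, with an adjusted p of 0.660 and 0.969 in limma. Cxcr4, the Cxcl12 receptor that keeps cells in bone marrow, read 9.84, 9.81 and 10.01 in CBP-deleted, 9.95, 10.22 and 10.34 in p300-deleted and 10.01, 9.94 and 9.48 in control cells. The lowest p300-deleted array lay below the highest control. The Cxcr4 difference was 0.36 in p300-deleted cells (SE 0.14, 95% interval 0.05 to 0.67, limma adjusted p = 0.185) and 0.08 in CBP-deleted cells (adjusted p = 0.806). Plasma cells depend on Cxcr4 to stay in marrow, and all 5 of the plasma cell markers measured rose in p300-deleted cells. Their summed level was log2 14.51 to 14.70 there against 12.79 to 13.27 in controls. In CBP-deleted cells the sum was 13.32 to 13.87, also above all controls. There 1 of the 5 passed, Igha, higher by 1.15 (limma adjusted p = 0.0101), and the median of the 5 was -0.04. The part of such cells in the Cxcr4 reading was not tested.

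Across the 8 receptors the arrays of CBP-deleted and control cells did not overlap for 5, or 62.5%, beside 24.4% of all genes. For p300-deleted against control cells this held for 2 of 8, or 25.0%, beside 20.3% of all genes. Between the deleted groups it held for 2 of 8, or 25.0%, beside 30.1%. These shares too are descriptions, since the 8 were chosen with earlier results of the same data known. The receptors that separated in CBP-deleted cells did not move one way: Ccr7 and Ccr8 were higher and Ccr2, Ccr6 and Selplg lower. The median log2 fold change of the 8 was 0.10 in CBP-deleted cells (-0.03 over all genes), -0.05 in p300-deleted cells (-0.02) and 0.21 between the deleted groups (-0.02).

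**Figure D4:**
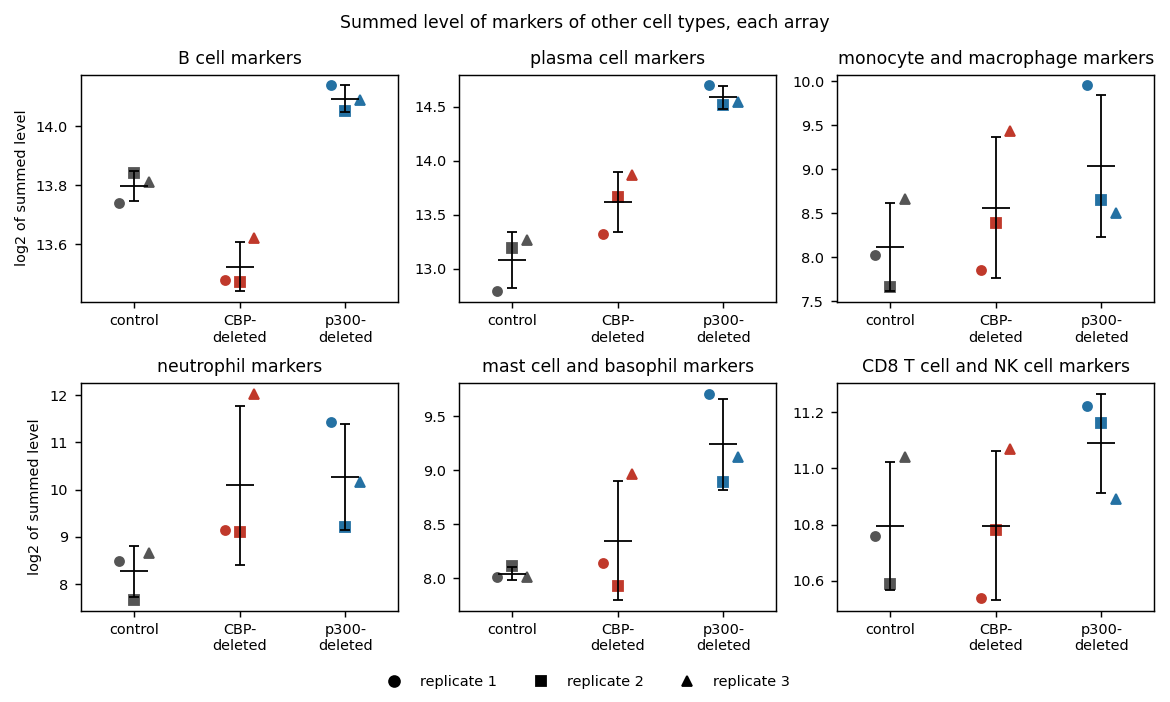
Log2 of the summed level of 6 lists of markers of other cell types on each array, with the mean and SD of 3 arrays per group; the vertical axes differ between panels. Plasma cell markers are highest in p300-deleted arrays, and B cell markers are lowest in CBP-deleted arrays.

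The levels of cells that could share the CD4+CD25+ fraction varied between groups, as plotted above. Neutrophil markers summed to log2 7.66 to 8.66 in controls, 9.10 to 12.03 in CBP-deleted and 9.20 to 11.44 in p300-deleted cells, with 0 and 2 of 9 higher by limma and 4 and 8 with an unadjusted p below 0.05. Mast cell and basophil markers summed to 8.01 to 8.11, 7.93 to 8.97 and 8.89 to 9.71, with 0 and 4 of 7 higher and 1 and 4 with an unadjusted p that low. Of the 10 markers of CD8 T cells and NK cells 2 rose after loss of CBP and 1 after loss of p300. In either direction 3 and 7 had an unadjusted p below 0.05, beside 20.4% and 18.6% of all genes. The sums of the 10 overlapped in all groups. Of 4 dendritic cell markers 0 passed in limma in either, 0 and 1 with an unadjusted p below 0.05, and of 3 erythroid markers Alas2 fell in CBP-deleted cells. Of 15 Treg markers 5 passed in CBP-deleted cells, 2 higher and 3 lower, with Foxp3 among the lower. In p300-deleted cells 2 passed, Izumo1r higher and Foxp3 lower. As stated above, the Foxp3 reading does not show whether the cells lack Foxp3. Of 9 T cell markers 2 passed in CBP-deleted cells, Cd2 higher and Cd5 lower, and 3 in p300-deleted cells, Cd4, Cd2 and Cd3g, all higher. The part of these cells in the Ccr8, Selplg and Ccr7 differences was not tested.

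The receptors were then set among 107 other genes of chemokine response, adhesion and homing, in 7 lists. In CBP-deleted cells 10 of the 107 fell and 0 rose, that is 9.35% lower beside 2.79% of all genes, with a median of -0.13 (-0.03 over all genes). In p300-deleted cells 2 rose and 4 fell, 1.87% and 3.74%, beside 2.02% and 2.04% of all genes. Between the deleted groups 1 was higher and 10 lower in CBP-deleted cells, 0.935% and 9.35%, beside 3.20% and 2.01%. These genes were chosen with earlier results of the same data known, and these shares are descriptions.

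Of 16 other chemokine receptors 1 fell in CBP-deleted cells; in p300-deleted cells 0 passed in limma and 1 had an unadjusted p below 0.05. Cxcr5, which takes follicular T cells and B cells to Cxcl13 in B cell follicles, averaged log2 6.52 in CBP-deleted, 7.43 in p300-deleted and 7.46 in control cells. Its fall in CBP-deleted cells was 1.93-fold (log2 -0.95, SE 0.17, limma adjusted p = 0.0139), beside the fall of B cell markers given above. Cxcr3, the receptor of Th1-type Treg cells, had a difference of -0.22 (limma adjusted p = 0.494) in CBP-deleted and -0.13 (adjusted p = 0.748) in p300-deleted cells. Its arrays overlapped those of the controls in both. Cxcr6, named after its values were seen, read 9.31, 9.34 and 9.46 in CBP-deleted cells and 10.33, 10.45 and 10.07 in controls, a difference of -0.91 (SE 0.25) that did not pass (adjusted p = 0.0578). Of 11 ligands of the receptors and selectins 0 passed in limma in any of the 3 comparisons, with 1 in each at an unadjusted p below 0.05. The brightest, Ccl22, read 9.22 in control replicate 3 and 6.23 and 6.49 in the other controls, an array difference larger than any between group means.

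Of 9 genes of sphingosine 1-phosphate sensing and metabolism, S1pr4, a second S1P receptor of lymphocytes, fell in p300-deleted cells by 0.49 (SE 0.10, limma adjusted p = 0.0227). It read 9.05, 9.13 and 9.30 there and 9.69, 9.75 and 9.53 in controls. In CBP-deleted cells its difference was -0.36 (adjusted p = 0.0648). S1pr1 and S1pr4 were not tested against each other.

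Of 13 enzymes that build selectin ligands such as those on Selplg, 1 fell after loss of CBP and 2 fell after loss of p300. Tpst2, a sulfotransferase that acts on tyrosines, fell by 0.40 (SE 0.10, limma adjusted p = 0.0354) in CBP-deleted cells, where Selplg also fell. Chst2, which sulfates sugars of L-selectin ligands, fell by 1.30 in p300-deleted cells (SE 0.15, adjusted p = 0.00221), and the sialyltransferase St3gal1 by 0.42 (adjusted p = 0.0390). Their p300-deleted means of log2 5.63 and 5.95 lay within the range of the genes of other organs, so that no fold is given. Fut7, the fucosyltransferase that completes sialyl Lewis x, is among those that did not pass.

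Of 15 integrins and adhesion receptors 4 fell in CBP-deleted cells. They were Cd44, the hyaluronan receptor of activated T cells, by 0.73 (SE 0.18, limma adjusted p = 0.0374), the adhesion molecules Icam1 by 0.63 and Icam2 by 0.54, and the laminin-binding integrin chain Itga6 by 0.52. Cd44 also fell in p300-deleted cells, by 0.70 (SE 0.18, adjusted p = 0.0481), the only one of the 15 to pass there. Of 26 genes of receptor signalling 3 fell in CBP-deleted cells: Rgs14, which speeds the shut-off of Gi proteins, by 0.72 (SE 0.11, adjusted p = 0.00757), Dock2, the activator of Rac in migrating lymphocytes, by 0.34, and Arrb2, an arrestin that uncouples receptors, by 0.32. In p300-deleted cells 2 of the 26 rose, Rgs16 by 1.02 (SE 0.17, adjusted p = 0.0101) and Rgs1 by 0.61 (SE 0.09, adjusted p = 0.00819), both brakes on chemokine receptor signals.

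Of 17 transcription factors that act on homing receptors, Tbx21, the Th1 factor that drives Cxcr3, was the one called against the control, and it fell in CBP-deleted cells by 1.14 (SE 0.23, limma adjusted p = 0.0210). Klf2, which activates S1pr1 in T cells, averaged log2 11.60 in CBP-deleted, 11.87 in p300-deleted and 11.78 in control cells. Its differences from the control were -0.17 (adjusted p = 0.526) and 0.09 (adjusted p = 0.784), and the groups overlapped.

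**Figure D5:**
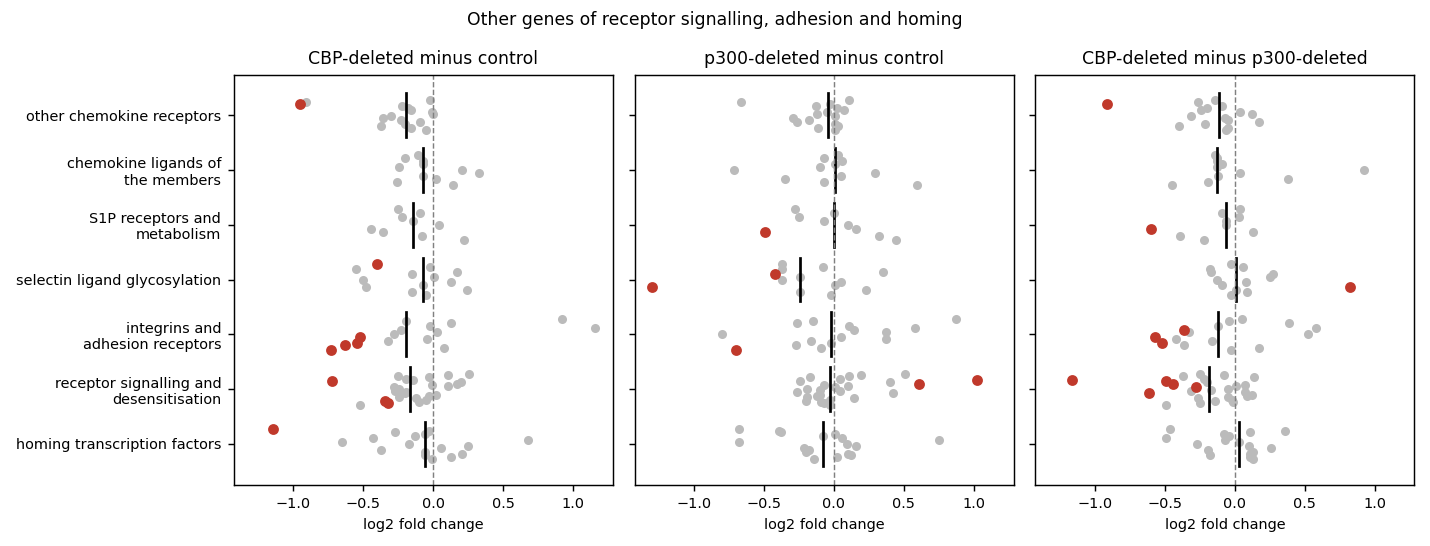
Log2 fold change of each gene of 7 lists in the 3 comparisons; red points passed (adjusted p below 0.05), grey points did not, and black lines are list medians. In CBP-deleted minus control all 10 red points lie below 0; in p300-deleted minus control the lowest point is Chst2 at -1.30.

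Most of these calls were lost when 1 or another array was left out. Of the 10 in CBP-deleted cells 9 were lost without CBP-deleted replicate 2 or 3 or control replicate 1, 8 without CBP-deleted replicate 1 and 4 or fewer without any other array; Rgs14 kept its call throughout. Of the 6 in p300-deleted cells up to 4 were lost, those without p300-deleted replicate 2, and Chst2 and Rgs1 kept theirs. Calls over all genes varied too when each array was left out in turn. They numbered 85 to 1131 (main 611) in CBP-deleted and 65 to 854 (main 503) in p300-deleted cells. The losses are thus not shown to be particular to these genes.

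For the 2 receptors that passed, the genes most alike over the 9 arrays were found among 12135 named genes, as a description. Ccr8 was followed most closely by Arpc4, a subunit of the actin-branching Arp2/3 complex (Pearson r = 0.974), the kinase Cdk6 (0.966) and Cul2, a ubiquitin ligase scaffold (0.965). The Cdk6 probe set averaged 4.15 at most in any group, within the range of the genes of other organs. Selplg was followed by the adhesion molecule L1cam (0.979), Prr14 (0.975) and the kinase Mapkapk2 (0.975). The points share the group differences and the 3 controls.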

How the data were processed

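Per the labels' protocols, RNA was extracted on RNeasy columns, amplified and labelled with biotin. RMA is the summary method in the submitters' processing notes; its version and settings are not given in the sources used here. The authors' deposited values, 1 log2 value per probe set and array, were used as deposited.

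Of 22690 probe sets, 64 controls were set aside; 20380 carry 1 gene symbol in the platform annotation of the table used here, 691 several and 1555 none. Names were matched to RefSeq (GRCm38.p6); 24 symbols had no match. Comparisons used limma 3.58.1 (R 4.3.3) with 3 group means fitted to all 9 arrays (residual df 6), eBayes with a trend, two-sided, Benjamini-Hochberg over 12393 genes at 0.05. An exact permutation test of 3 against 3 arrays cannot go below 0.1 and was not used. The procedure was tested on simulated data. Members and lists were chosen with earlier results of these data known. Named genes were picked as the 8 receptors, the top 3 that passed (or else the brightest) of each list, and the 3 most alike. For the lists of cell type markers not every gene so picked is named in the text. Cxcr6, Itga6, Rac2, Ighm, Pax5, Ebf1 and Fut7 were added after seeing values. So were Rgs1 between the deleted groups and Cxcr3 in CBP-deleted cells.

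P-values set a difference between groups against the spread between these samples within groups, as moderated by limma. The main fit did not use the replicate numbers to pair arrays, and whether they do so was not settled. The 18 alternatives change probe set choice, moderation, scaling, the arrays in the fit, a replicate block, or leave out 1 array.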

Additional observations from a re-analysis of the deposited data

Results flagged for a closer look

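Of the 8 receptors and 107 other genes, 11 differed between the 2 deleted groups by the direct limma comparison, in which 5.20% of all genes passed; none of the 11 is one of the 8 receptors. Both groups were measured against the same 3 controls. Rgs16 was 1.02 higher than the control in p300-deleted and -0.14 in CBP-deleted cells, a log2 difference of -1.16 between CBP-deleted and p300-deleted cells (adjusted p = 0.00308). Cxcr5 differed by -0.91 (adjusted p = 0.0101), with -0.03 in p300-deleted and -0.95 in CBP-deleted cells. Chst2 differed by 0.82 (adjusted p = 0.0101), with -1.30 in p300-deleted and -0.48 in CBP-deleted cells. Grk5, a receptor kinase, differed by -0.61 and S1pr5, an S1P receptor, by -0.60; both read within the range of the genes of other organs. The integrin chains Itga6 and Itgav differed by -0.57 and -0.36, and Icam2 by -0.52. Rgs14 differed by -0.49, Rgs1 by -0.44 and Rac2, the GTPase of migrating leukocytes, by -0.28. Rgs16 alone kept its call under all 18 alternatives, whereas 9 of the 11 lost theirs without CBP-deleted replicate 2 and 9 without p300-deleted replicate 2. Over all genes 212 to 1041 passed without each array in turn, against 645 in the main fit. Groups of 3 arrays were not searched for single outlying samples.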

How the results depend on the processing

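Direction was kept wherever a receptor passed, as reported or under an alternative. Of 429 receptor values under alternatives, 403 stayed on the same side of the threshold, 20 lost a call and 6 gained one. In CBP-deleted against control cells, 2 receptors passed; 1 passed with the mean of all probe sets or with every probe set on its own, and 0 passed with eBayes without trend or with only the arrays of the 2 groups. Between the deleted groups, where 0 passed, 1 passed with only the arrays of the 2 groups. Without each array in turn the counts ranged from 0 to 2, from 0 to 1 in p300-deleted against control cells and from 0 to 1 between the deleted groups. Over all genes these counts were 85 to 1131 (main 611), 65 to 854 (503) and 212 to 1041 (645), and 261 to 641, 165 to 592 and 524 to 1386 under the other alternatives. The deviations of same-numbered arrays from their group means had correlations of -0.23 to 0.27. With 3 arrays per group these cannot settle whether the numbers pair the arrays. With the replicate block 0 receptors passed in CBP-deleted against control cells (Ccr8 limma adjusted p = 0.0627, Selplg 0.0510). Among the 107 other genes, 168 of 5670 values lost a call, 66 gained one and 0 called values reversed. Precision is set by 3 arrays per group, and by signal for Ccr4 and Ccr8, which lie near the genes of other organs.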
